A study of Arabidopsis thaliana with 14 samples.

Results

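These are transcripts that were higher with the auxin NAA in wild-type Arabidopsis thaliana roots. The comparison was with 0 h at 2 h and with mock at 6 h. The same transcripts also rose from 0 h at both times in slr-1, a mutant that forms no lateral roots. Of the 22746 probe sets on the array that are not controls, 136 were chosen, and 14883 passed the floor on signal (both arrays of at least 1 group above 218). The choice used the signals themselves. With L the group mean of log2(signal + 19), a probe set was taken when L rose by at least 1 in Col-0 from 0 h to 2 h of NAA, in Col-0 at 6 h of NAA against 6 h of mock, and in slr-1 from 0 h to 2 h and from 0 h to 6 h of NAA. A rise of 1 on this scale is a doubling of signal + 19. Those 4 changes are therefore given as a description, with no test. The annotation named exactly 1 gene for 66 of the 136, several for 1 and none for 69. Of the 66 genes, 17 are called here by a symbol and 49 by their locus only.

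Auxin is sensed by TIR1/AFB receptors, which bring Aux/IAA repressors to degradation and so release the ARF transcription factors that the repressors hold back. Among the genes switched on in this way are those of the Aux/IAA repressors themselves, of the GH3 enzymes that join auxin to amino acids, and of the LBD factors that act in the pericycle when a lateral root is started. The slr-1 allele makes the Aux/IAA protein IAA14 (SLR) resistant to degradation, so that the ARFs it binds stay repressed when auxin is present.

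The arrays were Affymetrix ATH1 arrays, 2 per group in 7 groups. The wild type Col-0 was measured at 0 h, after 2 h and 6 h of 10 µM NAA (a synthetic auxin), and after 6 h of mock treatment, and slr-1 at 0 h and after 2 h and 6 h of 10 µM NAA. Every seedling of every group, controls included, was raised on 10 µM NPA, which blocks polar auxin transport, and was 3 days old at the start. The tissue was the root stretch from the meristem up to the hypocotyl, with about 1500 seedlings pooled for a time point. The description field of both mock samples speaks of a tissue of another organism, while their titles and source names give Col-0 mock and the root segment, and they were used as such. There were no slr-1 mock and no 2 h mock arrays here, so in the changes against 0 h the effect of NAA and that of time after transfer cannot be told apart. IAA14 had no probe set named for it, so the mutated gene was not analysed here. In pooled bulk tissue, fewer cells of a type and less RNA per cell cannot be told apart.

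The arrays had the same mean signal after the 2% highest and lowest were trimmed (1000.1) and medians of 357.1 to 397.2, and replicates correlated at 0.951 to 0.977 across tested probe sets. On slr-1 6 h NAA replicate 2 the highest signal was 29349.7, against 58837.1 to 124830.4 on the others, and 10 of the 136 probe sets exceeded 20000 elsewhere. On slr-1 0 h replicate 2 the 3' to 5' ratio of GAPDH was 1.16, against 0.546 to 0.742 on the others. Of 28 cell type markers only the root hair genes EXPA7 and EXPA18 had a named probe set. EXPA18 lay at 22.4 to 141.8 on the slr-1 arrays and at 136.7 to 772.0 on the Col-0 arrays, and the part of this difference in any result below was not tested. The markers of endodermis, stele, meristem, xylem, phloem and shoot were not analysed here, so the labelled tissue was not checked by them.

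The 136 rises were 23.5% of the 578 probe sets that met both Col-0 conditions. Of the other 442, 86 reached 1 at a single time in slr-1 and 356 at neither time. Over the 136, the median change was 2.16 in Col-0 at 2 h, 2.77 in Col-0 at 6 h against mock, 1.80 in slr-1 at 2 h and 1.66 in slr-1 at 6 h (all log2). The highest single changes in the same order were 7.64, 8.08, 4.57 and 4.62. Against 0 h, the Col-0 change at 6 h of NAA ran from 0.06 to 9.06, with a median of 2.48. A rise of 1 against mock was thus not in every member a rise of 1 against 0 h. The Col-0 medians of the 442 rises that were not kept were 1.42 and 2.23. The smallest of a probe set's 4 changes fell in slr-1 for 96 and in Col-0 for 40. It was at least 1.5 for 50, at least 2 for 23 and at least 3 for 8, and of those 8 only 3 have a named gene. All 16 differences between single arrays were above 0 for 126 of the 136 and at least 1 for 59. The 69 without a named gene had medians of 2.05, 2.82, 1.83 and 1.66 in the order above. Just inside the threshold lay AT1G80880, AT1G70550 and AT2G18980, with smallest changes of 1.010, 1.006 and 1.004. Just outside lay AT1G28710, AT5G27760 and AT5G22530, with 0.995, 0.979 and 0.972.

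With only the replicate 1 array of each group, the rule took 142 probe sets, of which 73 (51.4%) also met it on the replicate 2 arrays. Of all tested probe sets, 0.873% met it on the replicate 2 arrays. Chosen on the replicate 2 arrays, 130 were taken, and 73 (56.2%) met the rule on the replicate 1 arrays, against 0.954% of all tested. Membership of a given probe set thus often rested on the mean of both arrays. Before NAA many of these transcripts were low. Both arrays exceeded the floor of 218 for 78 of the 136 in Col-0 at 0 h, for 73 in the mock and for 75 in slr-1 at 0 h, and this rose to 134 in Col-0 and 123 in slr-1 at 6 h of NAA. For 36 no single 0 h or mock array lay above it, and the sizes of changes that start from such signals depend on the 19 added.

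**Figure D1:**
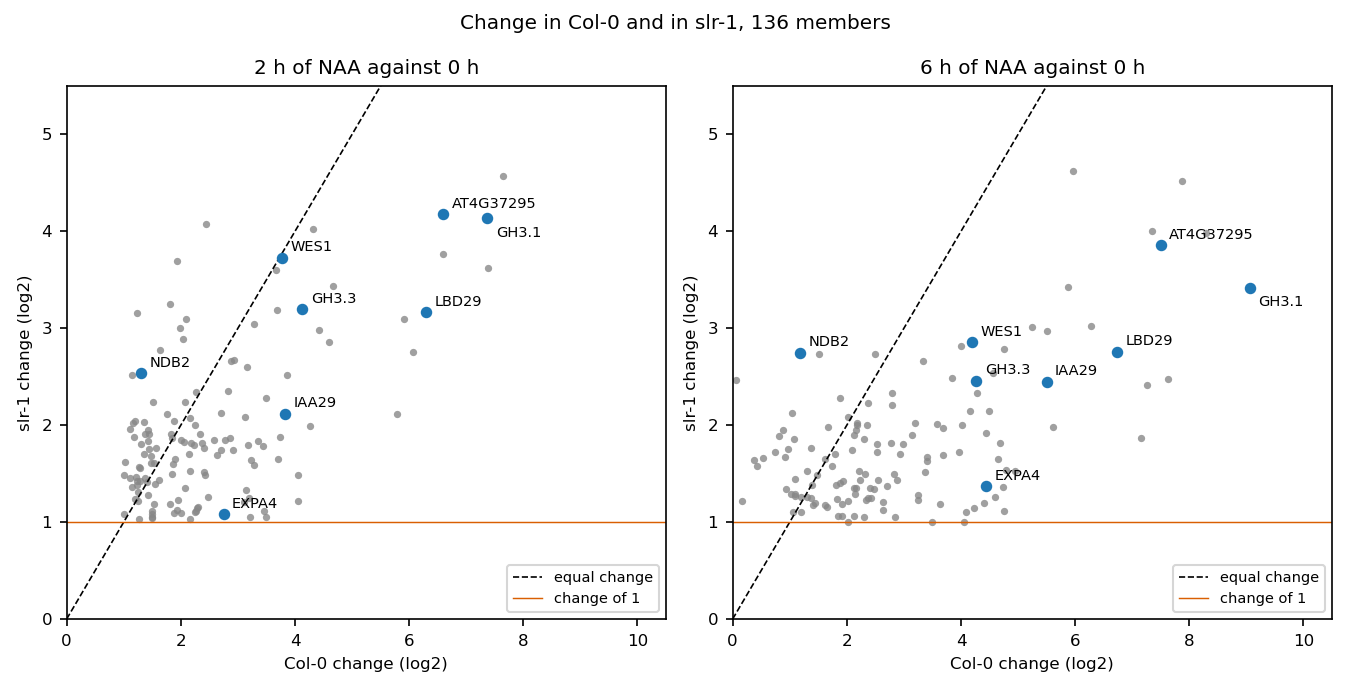
Change in Col-0 (horizontal axis, log2) and in slr-1 (vertical axis, log2) for each of the 136 probe sets, at 2 h and at 6 h of NAA against 0 h. The dashed line marks equal change and the orange line the threshold of 1; most points lie below the dashed line, 89 at 2 h and 107 at 6 h, while WES1 at 2 h lies on it and NDB2 lies above it at both times.

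6 comparisons whose direction the rule does not set were fitted with limma across all 14883 probe sets, with Benjamini-Hochberg adjusted p under 0.05 as the call. None of them is independent of the rule. The response difference at 2 h and the change from 2 h to 6 h in slr-1 are differences between pairs of values that the rule used, and the other 4 share arrays with it, so that a low signal in the mock or at 0 h, for example, helped a probe set into the group and also enters the fit. The counts of members called are therefore a description of the chosen probe sets, given beside the share of all tested probe sets, and nothing about the group is read from them. The response difference is the slr-1 change from 0 h minus the Col-0 change from 0 h at the same time.

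GH3 enzymes inactivate auxin by conjugating it to amino acids. Of the 4 GH3 genes tested, GH3.1, GH3.3 and WES1 (GH3.5) were among the 136, and GH3.17 was not, with changes of -0.90 and 0.45 in Col-0 and 0.20 and 0.18 in slr-1 in the order of the rule. In the response difference at 6 h, 3 of the 4 were lower and 0 higher, where 12.6% of all tested probe sets were lower and 14.8% higher. The list median was -1.57 against 0.10 over all tested. At 2 h, 1 of the 4 was lower and 1 higher, where 2% of all tested were lower and 1.18% higher. The list median at 2 h was -0.49 against 0.01 over all tested. GH3.1 (AT2G14960) had signals of 11.5 and 4.8 in Col-0 at 0 h, 4965.0 and 3972.1 at 2 h, 14877.7 and 13871.4 at 6 h of NAA, and 18.5 and 105.6 in the mock. In slr-1 it had 18.6 and 11.0 at 0 h, 447.9 and 735.0 at 2 h, and 322.0 and 358.5 at 6 h. All NAA arrays of both genotypes lay above all 0 h and mock arrays, and every slr-1 NAA array lay below every Col-0 NAA array. The 0 h signals are near or under the added 19, so the folds of signal + 19, 166 in Col-0 and 17.7 in slr-1 at 2 h, depend on it. The response difference of GH3.1 was -3.23 (SE 0.60, adjusted p = 0.0107) at 2 h and -5.64 (SE 0.60, adjusted p = 2.88e-05) at 6 h. At 2 h, leaving out replicate 1 of Col-0 2 h NAA gave an adjusted p of 0.0527, and leaving out replicate 1 of slr-1 2 h NAA 0.0618.

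GH3.3 (AT2G23170) had signals of 1869.6 and 2526.5 in Col-0 at 0 h, 39916.7 and 37074.5 at 2 h, 43359.8 and 41303.7 at 6 h, and 1384.7 and 1109.9 in the mock. The slr-1 signals were 4827.3 and 3874.9 at 0 h, 38029.6 and 41712.6 at 2 h, and 35158.6 and 16149.9 at 6 h, the last on the array with the low maximum. At 2 h the arrays of the genotypes thus overlapped, after slr-1 had begun higher. The response difference at 6 h was -1.81 (SE 0.39, adjusted p = 0.00385). At 2 h it was -0.94 (95% interval -1.78 to -0.09, adjusted p = 0.235), and with quantile normalization -1.12 (adjusted p = 0.0199).

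WES1 (AT4G27260) had signals of 2422.8 and 2120.2 in Col-0 at 0 h, 31992.7 and 30669.6 at 2 h, 43514.2 and 39838.8 at 6 h, and 941.3 and 1431.7 in the mock. Its signals in slr-1 were 1761.3 and 992.2 at 0 h, 15970.4 and 19824.2 at 2 h, and 12158.7 and 7734.5 at 6 h. Signal + 19 rose 13.7-fold in Col-0 and 13.3-fold in slr-1 by 2 h, a response difference of -0.05 with a 95% interval of -0.86 to 0.77. At 6 h the difference was -1.33 (SE 0.38, adjusted p = 0.0189). That call was lost on leaving out Col-0 6 h NAA replicate 1 (0.0648), replicate 2 of Col-0 at 0 h (0.0648), replicate 1 of slr-1 at 0 h (0.0742) or replicate 2 of slr-1 at 6 h (0.0877).

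Aux/IAA proteins are a family of repressors, many of which auxin removes, and many of their genes are themselves auxin-induced. Of 4 tested, IAA29 and IAA30 were among the 136. IAA18 was not, with 1.23 and 1.75 in Col-0 and 0.74 and 0.80 in slr-1, and neither was IAA20, with -0.34, 3.55, 0.21 and 0.90. In the response difference at 6 h, 2 of the 4 were lower (12.6% of all tested), with a list median of -2.15 against 0.10 over all tested. IAA29 (AT4G32280) had signals of 73.5 and 193.3 in Col-0 at 0 h, 2009.6 and 1950.9 at 2 h, 6588.1 and 6086.8 at 6 h, and 155.0 and 137.3 in the mock. In slr-1 it had 271.7 and 263.3 at 0 h, 1144.7 and 1316.8 at 2 h, and 1597.5 and 1497.1 at 6 h. The Col-0 and slr-1 arrays did not overlap at any of the 3 times: slr-1 was the higher at 0 h and the lower at 2 h and 6 h. The response difference was -3.05 at 6 h (SE 0.39, adjusted p = 1.13e-04). At 2 h it was -1.71 (SE 0.39, adjusted p = 0.03), a call that was lost on leaving out either 2 h array of Col-0 (adjusted p 0.0896 and 0.0966), either 2 h array of slr-1 (0.117 and 0.0558) or the second 0 h array of slr-1 (0.069).

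IAA30 (AT3G62100) had signals of 115.2 and 121.8 in Col-0 at 0 h, 1990.8 and 1081.9 at 2 h, 1811.7 and 1466.5 at 6 h, and 148.4 and 31.7 in the mock. The slr-1 signals were 33.9 and 88.3 at 0 h, 276.8 and 209.2 at 2 h, and 279.4 and 288.1 at 6 h. The NAA arrays of slr-1 lay below those of Col-0 and above all 0 h and mock arrays. The response differences of -1.65 (SE 0.69, adjusted p = 0.233) at 2 h and -1.58 (SE 0.69, adjusted p = 0.105) at 6 h did not pass. The 6 h difference had an adjusted p of 0.0373 without Col-0 6 h mock replicate 1, 0.0339 without mock replicate 2 and 0.045 without slr-1 0 h replicate 1.

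LBD29 (AT3G58190), a LOB-domain transcription factor of lateral root initiation that acts below ARF7 and ARF19, had signals of 112.2 and 91.2 in Col-0 at 0 h, 10341.8 and 8654.8 at 2 h, 13989.8 and 11781.0 at 6 h, and 168.9 and 32.2 in the mock. Its signals in slr-1 were 317.3 and 317.8 at 0 h, 2583.2 and 3486.1 at 2 h, and 2323.2 and 2192.6 at 6 h. It thus rose in slr-1 on every NAA array and stayed below every Col-0 NAA array. The response difference was -3.14 (SE 0.56, adjusted p = 0.00947) at 2 h and -3.98 (SE 0.56, adjusted p = 2.19e-04) at 6 h. The 2 h value had an adjusted p of 0.0529 without slr-1 2 h NAA replicate 1. LBD16, the other LBD gene tested, was not kept: its changes were 3.22 and 4.01 in Col-0 and 1.08 and 0.42 in slr-1. PUCHI, an AP2/ERF factor of lateral root primordia, was not kept either, with 3.16 and 6.06 in Col-0 and 0.44 and 0.62 in slr-1. Of the 4 lateral root regulators tested (these 3 and HAT2), 3 were lower in the response difference at 2 h and 3 at 6 h, where 2% and 12.6% of all tested were lower. The list medians were -2.44 and -3.61, against 0.01 and 0.10 over all tested.

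HAT2 (AT5G47370), an auxin-induced class II homeodomain-leucine zipper factor, had signals of 705.3 and 730.2 in Col-0 at 0 h, 6018.3 and 7341.0 at 2 h, 3967.3 and 4665.3 at 6 h, and 460.7 and 202.1 in the mock. In slr-1 it had 935.6 and 455.5 at 0 h, 2306.2 and 2348.3 at 2 h, and 1882.1 and 1713.6 at 6 h. The NAA arrays of slr-1 lay below those of Col-0, with 0 h arrays that overlapped. The response differences, -1.38 (SE 0.46, adjusted p = 0.129) at 2 h and -1.12 (SE 0.46, adjusted p = 0.0837) at 6 h, did not pass with all arrays. Without Col-0 6 h mock replicate 1, mock replicate 2 or slr-1 0 h replicate 2 they had adjusted p of 0.0475, 0.0468 and 0.0398 at 2 h and 0.0302, 0.0298 and 0.0136 at 6 h.

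Among cell wall loosening genes (expansins, XTH enzymes and endoglucanases), 2 of 24 tested were among the 136 and 2, EXPA20 and GH9B13, were Col-0 rises that slr-1 did not keep. Of the 24, 5 were lower and 3 higher in the response difference at 6 h, with a list median of -0.21. Over all tested probe sets 12.6% were lower and 14.8% higher at 6 h. The higher share of the list at 6 h was thus near that background and the lower share not far from it. At 2 h, 4 of the 24 were lower and 0 higher, with a list median of -0.07. Of all tested probe sets, 2% were lower and 1.18% higher at 2 h. EXPA4 (AT2G39700), an expansin, had signals of 1478.3 and 1241.0 in Col-0 at 0 h, 7382.9 and 11519.9 at 2 h, 32226.8 and 27490.7 at 6 h, and 2246.1 and 1370.0 in the mock. The slr-1 signals were 4111.6 and 2433.1 at 0 h, 6737.3 and 6651.2 at 2 h, and 8946.1 and 7477.9 at 6 h. Its slr-1 arrays were higher than Col-0 at 0 h, and its signal + 19 rose 2.11-fold in slr-1 against 6.73-fold in Col-0 by 2 h. The response difference was -3.07 (SE 0.38, adjusted p = 9.16e-05) at 6 h. At 2 h it was -1.67 (adjusted p = 0.0304), and -2.05 to -1.30 with 1 array left out. The 2 h call was lost on leaving out any 1 of 6 arrays. Without the variance trend it was also lost (adjusted p = 0.0828).

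GH9C2 (AT1G64390), an endoglucanase of glycosyl hydrolase family 9, had signals of 773.5 and 1140.3 in Col-0 at 0 h, 6813.3 and 9948.1 at 2 h, 25181.0 and 26534.1 at 6 h, and 3981.2 and 2414.4 in the mock. Its signals in slr-1 were 2437.1 and 2333.1 at 0 h, 5147.5 and 5946.8 at 2 h, and 5690.8 and 4779.2 at 6 h. GH9C2 was higher in the mock than at 0 h (1.70, SE 0.24, adjusted p = 0.00185), and its Col-0 change at 6 h of NAA was 4.75 against 0 h and 3.05 against mock. Its response difference was -1.90 (SE 0.34, adjusted p = 0.00947) at 2 h and -3.63 (SE 0.34, adjusted p = 1.26e-05) at 6 h. Without slr-1 2 h NAA replicate 1 the 2 h adjusted p was 0.05.

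**Figure D2:**
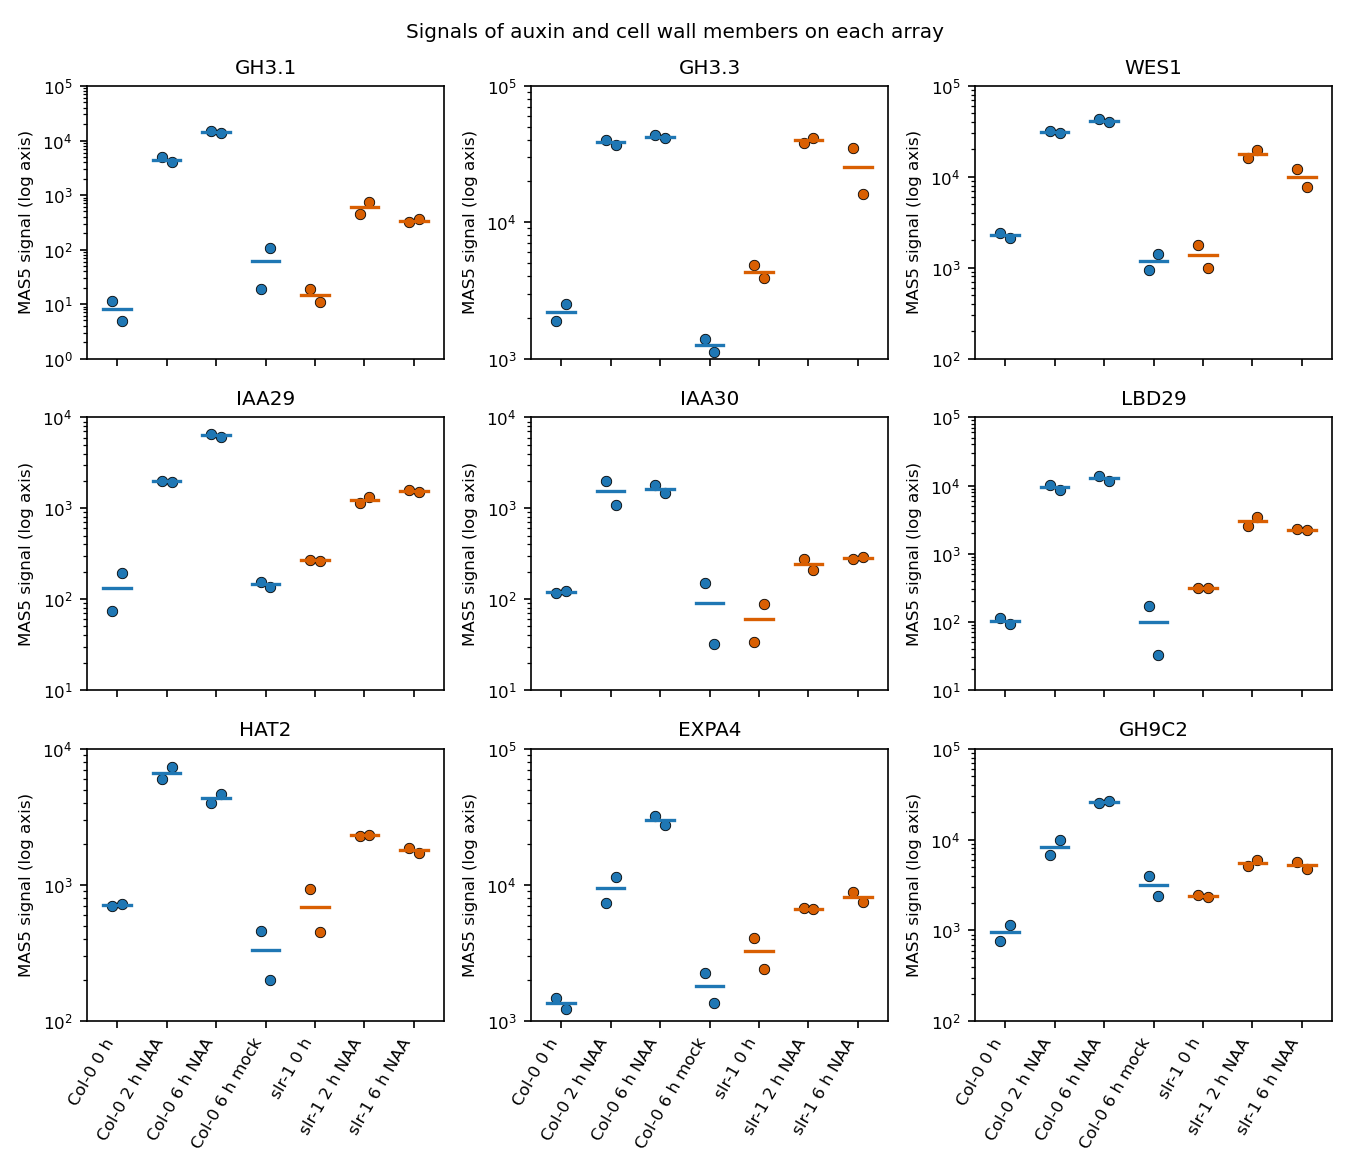
MAS5 signal (vertical axis, log scale with its own range in each panel) of 9 genes on each of the 14 arrays; points are arrays and bars the mean of 2, with Col-0 in blue and slr-1 in orange. On the NAA arrays GH3.1, IAA29, IAA30, LBD29, HAT2, EXPA4 and GH9C2 lie lower in slr-1 than in Col-0, as does WES1, while GH3.3 at 2 h overlaps.

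CLE44 (AT4G13195) encodes the precursor of a CLE peptide that moves from phloem to procambium. Its signals were 899.6 and 1429.2 in Col-0 at 0 h, 8222.4 and 7501.7 at 2 h, 9577.2 and 8582.0 at 6 h, and 543.3 and 503.8 in the mock. In slr-1 they were 1282.5 and 1014.3 at 0 h, 3686.1 and 4679.4 at 2 h, and 3862.6 and 4237.4 at 6 h. Starting levels overlapped and the NAA levels of slr-1 lay below those of Col-0, with a response difference of -1.17 (SE 0.28, adjusted p = 0.00742) at 6 h. At 2 h the difference of -0.92 did not pass (adjusted p = 0.0979), and without Col-0 0 h replicate 2 it was -1.25 (0.0287).

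2 genes of transporter families among the 136 are described here, and the transporters among the 136 were not counted. AT5G52050, listed as DTX50 of the detoxification efflux carriers, had signals of 35.1 and 26.8 in Col-0 at 0 h, 1117.7 and 852.5 at 2 h, 875.9 and 692.5 at 6 h, and 24.8 and 22.6 in the mock. In slr-1 it had 57.1 and 18.6 at 0 h, 836.4 and 865.8 at 2 h, and 260.8 and 488.2 at 6 h. The genotypes overlapped at 0 h and at 2 h, and slr-1 lay lower at 6 h, where the response difference was -1.19 (SE 0.54, adjusted p = 0.122). Without slr-1 0 h replicate 2 it was -1.70 (0.0272). AT1G59740, listed as NPF4.3 of the NRT1/PTR transporter family, rose 8.93-fold in Col-0 and 6.07-fold in slr-1 by 2 h. Its slr-1 signals were 445.2 and 456.4 at 0 h, 3032.8 and 2647.8 at 2 h, and 2671.8 and 3271.4 at 6 h, against 613.4 and 619.1, 6645.5 and 4813.3, and 6424.1 and 6321.5 in Col-0.

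Of the genes with no symbol, AT4G37295 and AT4G37290, which are next to each other in the gene order of RefSeq TAIR10.1, were, with GH3.1, the named genes with the highest smallest change. AT4G37295 had signals of 10.7 and 83.9 in Col-0 at 0 h, 5383.4 and 5286.9 at 2 h, 10755.8 and 9320.4 at 6 h, and 10.0 and 154.9 in the mock. The slr-1 signals were 137.5 and 110.4 at 0 h, 2235.0 and 2923.0 at 2 h, and 2169.1 and 1921.2 at 6 h. AT4G37290 had 3838.5 and 3435.7 in Col-0 and 520.5 and 343.3 in slr-1 at 2 h, with 0 h and mock signals of 9.8 to 87.5 in both genotypes. At 6 h both response differences passed, at -3.65 (SE 0.89, adjusted p = 0.00801) for AT4G37295 and -3.26 (SE 0.74, adjusted p = 0.00543) for AT4G37290. With 1 instead of 19 added to the signal, that of AT4G37290 was -3.11 (adjusted p = 0.0536). CLE44 and AT4G13190 were the only other neighbours in gene order among the 66. Within 5 genes of each other were 6 pairs holding 11 of the 66 genes (16.7%), among them GH9C2 with AT1G64405 and EXPA4 with AT2G39710. Of 247 genes whose Col-0 rise was not kept, 7.29% had such a neighbour in their own group, and of all 7918 tested genes 96.3%. A group with more genes offers more possible neighbours, so these shares are not comparable and nothing is read from them.

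NDB2 (AT4G05020), a mitochondrial external NAD(P)H dehydrogenase, was 1 of 4 members called higher in the response difference at 2 h and 1 of 8 at 6 h. By value alone, 23 of the 136 had the larger change in slr-1 at both times. It had signals of 2740.2 and 2575.4 in Col-0 at 0 h, 6768.6 and 6488.4 at 2 h, 5010.5 and 7270.0 at 6 h, and 1246.2 and 1680.4 in the mock. Its signals in slr-1 were 995.1 and 1054.4 at 0 h, 7019.3 and 5236.8 at 2 h, and 6917.6 and 7097.7 at 6 h. The genotypes overlapped under NAA at both times, and slr-1 lay lower at 0 h (-1.36, SE 0.19, adjusted p = 6.19e-04). The response difference was 1.57 (SE 0.27, adjusted p = 8.67e-04) at 6 h. At 2 h it was 1.23 (SE 0.27, adjusted p = 0.0246), and the adjusted p was 0.0766 and 0.0641 without Col-0 0 h replicates 1 and 2, 0.0698 and 0.0961 without Col-0 2 h NAA replicates 1 and 2, 0.12 without slr-1 2 h NAA replicate 1 and 0.0585 without slr-1 0 h replicate 2.

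AT1G72230 likewise started lower in slr-1, at 941.9 and 1069.9 against 2610.9 and 3074.1 in Col-0 (-1.48, SE 0.21, adjusted p = 7.73e-04). At 6 h of NAA it stood at 4280.9 and 3589.3 in slr-1 and at 5816.7 and 4714.2 in Col-0, so that slr-1 remained the lower. AT4G32780, named in part because its response differences were among the smallest, had like mean changes in each genotype from different levels. It had 373.6 and 246.7 in Col-0 and 102.9 and 20.8 in slr-1 at 0 h, 903.5 and 919.7 against 191.0 and 196.3 at 2 h, and 1304.9 and 1271.0 against 327.4 and 234.9 at 6 h. At 0 h its slr-1 level was lower (-2.21, SE 0.44, adjusted p = 0.00559), and its response differences were 0.08 and 0.07, with 95% intervals of -1.26 to 1.42 and -1.27 to 1.41.

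Narrower intervals around 0 were found for a few genes. AER (AT5G16970), an alkenal reductase that detoxifies reactive carbonyls, had signals of 2214.2 and 2319.9 in Col-0 and 1766.1 and 2200.6 in slr-1 at 0 h. At 2 h it had 5413.4 and 5079.5 in Col-0 and 5176.1 and 4242.6 in slr-1, and at 6 h 4417.6 and 5327.8 in Col-0 and 5299.3 and 4463.3 in slr-1. Its response differences were 0.04 (95% interval -0.44 to 0.51) at 2 h and 0.20 (-0.27 to 0.68) at 6 h. Those of AT1G14130 were -0.19 (-0.62 to 0.24) and 0.06 (-0.37 to 0.49), and those of AT3G13650 were 0.07 (-0.48 to 0.62) and -0.15 (-0.71 to 0.40). These 3 genes lay within 1 log2 unit of an equal response at both times, and they were named because their response differences were among the smallest. The whole interval lay within that range for 26 of the 136 at 2 h and for 17 at 6 h, and for 48.4% and 32.8% of all tested probe sets.

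**Figure D3:**
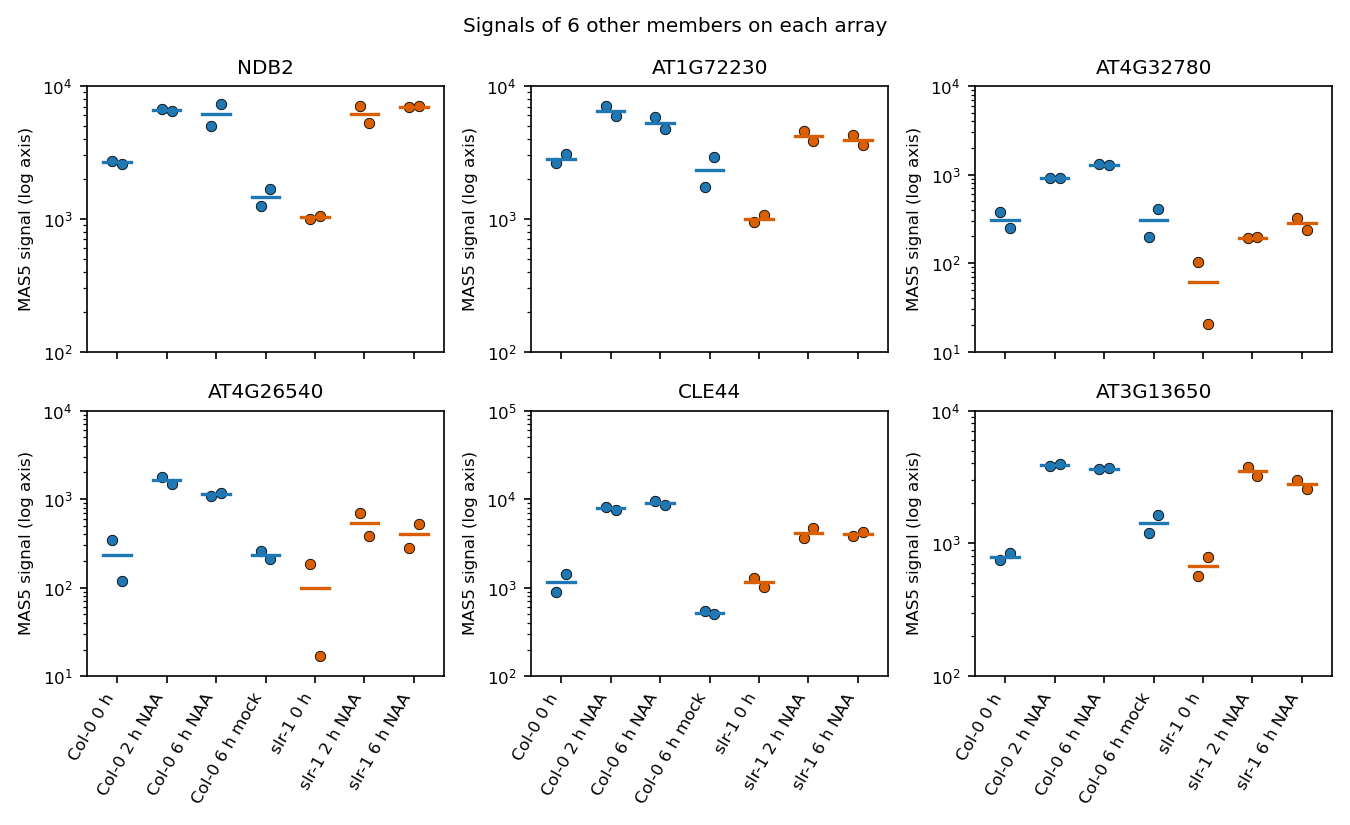
MAS5 signal (vertical axis, log scale with its own range in each panel) of 6 further genes on each of the 14 arrays; points are arrays and bars the mean of 2, with Col-0 in blue and slr-1 in orange. NDB2 and AT1G72230 begin lower in slr-1, AT4G32780 lies lower in slr-1 at all 3 times, and AT3G13650 overlaps between the genotypes at 0 h and lies lower in slr-1 on the NAA arrays.

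Over the whole group, the response difference at 6 h was lower in slr-1 for 57 of the 136 and higher for 8, where 12.6% of all tested probe sets were lower and 14.8% higher. The members' median was -1.04, and that of all tested was 0.10. At 2 h, 22 were lower and 4 higher, against 2% and 1.18% of all tested, with medians of -0.37 and 0.01. Of the 442 Col-0 rises not kept, 361 were lower at 6 h and 153 at 2 h, a count that the conditions on slr-1 help to fix. At 2 h the count of lower calls was 14 without either Col-0 2 h NAA array and 11 without slr-1 2 h NAA replicate 1, while the higher calls numbered 0 on leaving out replicate 2 of Col-0 at 0 h or at 2 h, replicate 2 of slr-1 at 0 h, or replicate 1 of slr-1 at 2 h. They numbered 2 on leaving out replicate 1 of Col-0 at 0 h or at 2 h, and 7 on leaving out replicate 1 of slr-1 at 0 h. At 6 h the lower calls ran from 47 to 62 and 46 of the 57 were called without any 1 array, while the higher calls fell to 4 when either slr-1 6 h NAA array or replicate 1 of Col-0 6 h NAA was left out, and to 5 without slr-1 0 h replicate 2.

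**Figure D4:**
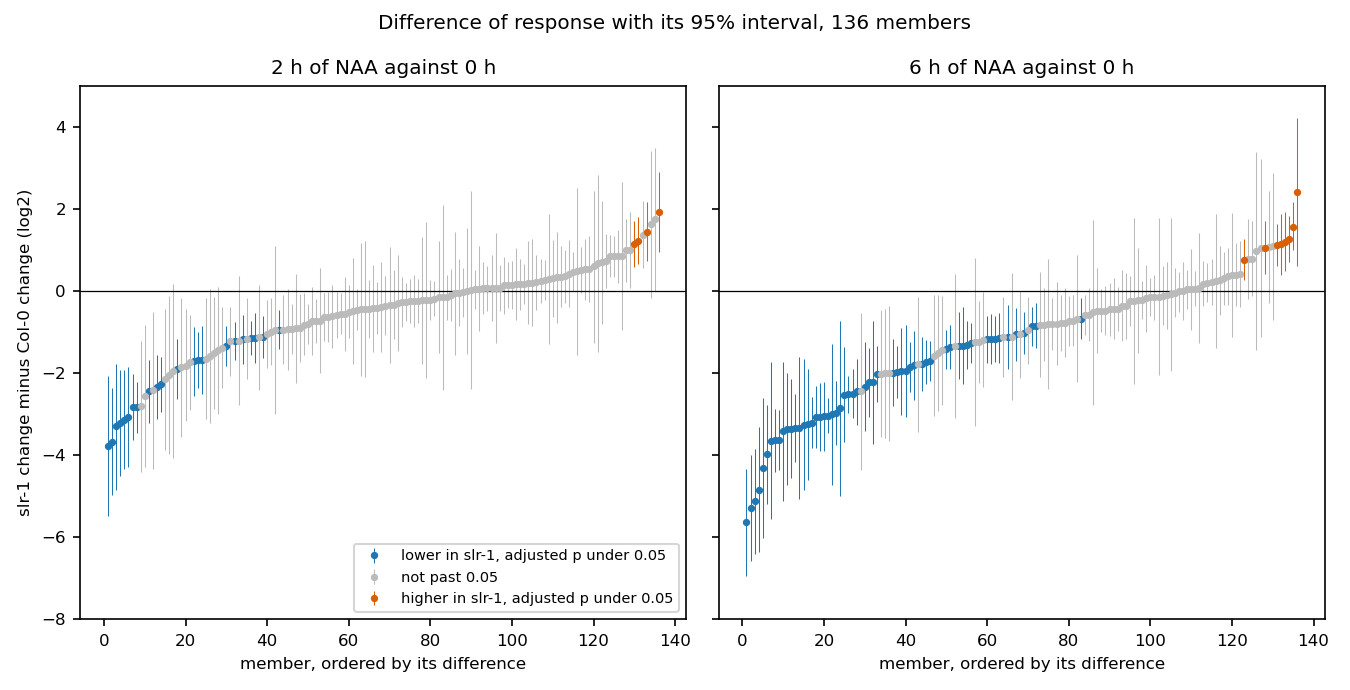
Response difference (slr-1 change minus Col-0 change, log2, vertical axis) of each of the 136 probe sets at 2 h and at 6 h, each panel ordered by its own values, with 95% intervals from limma. Blue points are lower and orange points higher in slr-1 at adjusted p under 0.05, 22 and 4 at 2 h and 57 and 8 at 6 h.

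From 2 h to 6 h with NAA, 34 of the 136 rose further in Col-0 and 14 fell back, while 15.5% of all tested probe sets were higher and 17.6% lower. In slr-1 0 rose and 6 fell, where 0.464% of all tested were higher and 0.753% lower. The members' median change over these hours was 0.41 in Col-0 and -0.17 in slr-1, against -0.06 and 0.06 over all tested. Of the Col-0 rises that were not kept, 252 of 442 rose further in Col-0. AT1G30760 went from 463.3 and 749.3 at 2 h to 18110.3 and 15527.8 at 6 h in Col-0 (4.79, SE 0.42, adjusted p = 4.62e-06), and in slr-1 from 1653.6 and 3860.1 to 3046.5 and 2541.4. At 2 h the slr-1 arrays of this gene were thus the higher, and at 6 h the lower. AT3G54000 went from 1265.2 and 1221.2 to 6615.0 and 5577.8 in Col-0 (2.27, SE 0.25, adjusted p = 2.32e-05) and from 714.6 and 618.8 to 758.7 and 600.4 in slr-1. AT2G18980 went from 4098.6 and 4143.3 to 14107.0 and 14664.8 in Col-0 (1.80, SE 0.14, adjusted p = 1.83e-06) and from 5306.6 and 5735.3 to 4867.6 and 5459.9 in slr-1. GH3.1, IAA29, EXPA4 and GH9C2 also rose further in Col-0, by 1.69, 1.67, 1.69 and 1.65. The call of GH3.1 was lost on leaving out Col-0 6 h NAA replicate 1, with an adjusted p of 0.0599, or Col-0 2 h NAA replicate 2, with 0.065.

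The count of further rises in Col-0 was 21 without Col-0 6 h NAA replicate 1, and 63 when only the groups compared were fitted. Declines in Col-0 numbered 3 and 8 without Col-0 2 h NAA replicates 1 and 2, and 5 and 7 without Col-0 6 h NAA replicates 1 and 2. The 6 declines in slr-1 became 0 and 2 without slr-1 2 h NAA replicates 1 and 2, and 3 and 1 without slr-1 6 h NAA replicates 1 and 2, so no member's decline there was called in every such fit. The limma count of 0 further rises in slr-1 was 1 without slr-1 2 h NAA replicate 2, and at an unadjusted p under 0.05 it was 6. The difference between the genotypes in this late change was not tested.

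**Figure D5:**
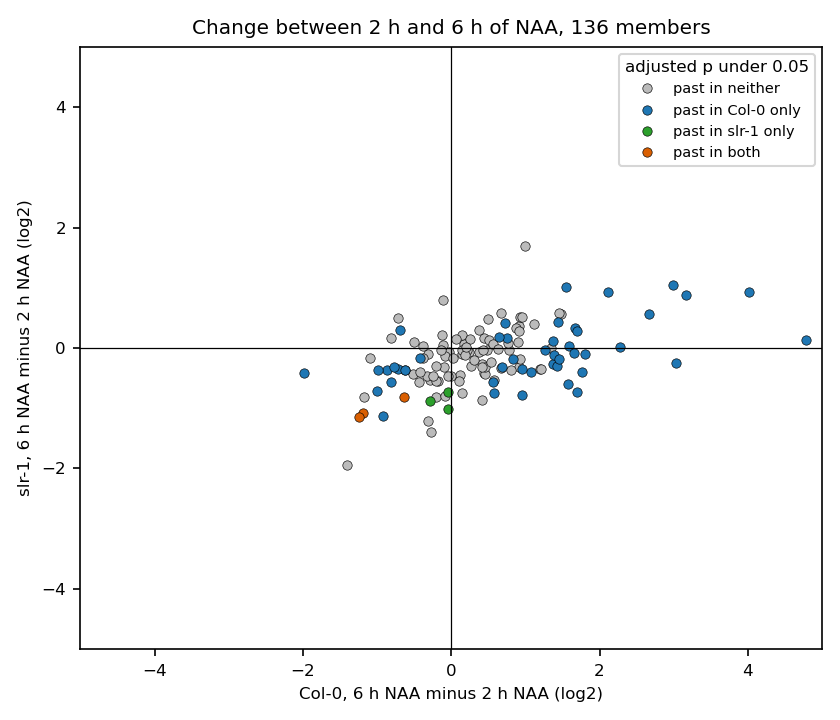
Late change (6 h minus 2 h with NAA) in Col-0 (horizontal axis, log2) and in slr-1 (vertical axis, log2) for each of the 136 probe sets, coloured by which of these changes had an adjusted p under 0.05. The call was made for 45 in Col-0 only, for 3 in slr-1 only, for 3 in both and for 85 in neither; the Col-0 values reach 4.79 to the right, and the slr-1 values lie between -1.95 and 1.69 with a median of -0.17.

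Before NAA, 19 of the 136 were higher and 23 lower in slr-1 than in Col-0, where 6.62% of all tested probe sets were higher and 6.77% lower; the medians were -0.23 and 0.01. The higher ones included AT1G30760 (406.8 and 569.2 against 120.8 and 33.2; 2.55, SE 0.42, adjusted p = 0.00182), AT2G18980 (2668.9 and 2457.5 against 947.8 and 762.3; 1.57, SE 0.14, adjusted p = 3.06e-05) and GH9C2 (1.33, SE 0.24, adjusted p = 0.00327). LBD29 (1.48), EXPA4 (1.21), IAA29 (1.03) and GH3.3 (0.99) were also called higher, and each of these 4 calls was lost when single 0 h arrays were left out. The adjusted p of LBD29 was then 0.0689 to 0.141 and that of GH3.3 0.0601 to 0.194, each over all 4 of the 0 h arrays. EXPA4 had 0.0889 without Col-0 0 h replicate 2 and 0.0734 without slr-1 0 h replicate 1. IAA29 had 0.183 without Col-0 0 h replicate 1, 0.0696 without slr-1 0 h replicate 1 and 0.0924 without slr-1 0 h replicate 2. The lower ones included NDB2, AT1G72230, AT4G32780 and Phox4 (-0.86, SE 0.16, adjusted p = 0.00358), a protein with a Phox and Bem1 domain. The response differences subtract these same 0 h arrays, so the 2 kinds of value are not independent. The counts were 9 higher and 15 lower without Col-0 0 h replicate 2, and 12 and 14 when only the groups compared were fitted.

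The mock arrays also entered the rule, which a low mock signal helps a probe set to meet. At 6 h of mock against 0 h in Col-0, 8 of the 136 were higher and 16 lower, where 2.98% of all tested probe sets were higher and 2.1% lower, with medians of -0.12 and 0.00. Besides GH9C2, AT3G24240 was higher (828.2 and 719.7 against 471.6 and 386.8; 0.83, SE 0.15, adjusted p = 0.00684), with 0.062 without mock replicate 1 and 0.0765 without Col-0 0 h replicate 2. CLE44 was lower (-1.09, SE 0.20, adjusted p = 0.00691), with 0.0761 without Col-0 0 h replicate 2, and so its change at 6 h against mock, 4.07, exceeds that against 0 h, 2.98. The higher calls numbered 5 without either mock array and 4 without Col-0 0 h replicate 2, and the lower calls 9 and 7 without Col-0 0 h replicates 1 and 2. Fitting only the 2 groups gave 2 and 10. NDB2 was also lower in the mock (limma, -0.87, adjusted p = 0.019), at -1.08 to -0.65 with 1 array left out. That call was lost without Col-0 0 h replicate 1, Col-0 0 h replicate 2 or mock replicate 1. Without the variance trend its adjusted p was 0.057. Of the 16 lower in the mock, 4 were called higher and 0 lower in the response difference at 2 h. At 6 h 4 of them were called higher and 4 lower.

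The 136 are 0.914% of the tested probe sets, so each of the lists that follow would hold fewer than 1 of them at that share, and nothing is read from the absence of members. By symbol, no member came from the tested genes of auxin synthesis (2), UDP-glycosyltransferases (35), membrane transporters (19, a list by symbol that does not hold AT5G52050 or AT1G59740), cytochrome P450 (13), glutathione S-transferases (11), cell cycle and replication (8), peroxidases (8), WRKY factors (6), bHLH factors (5) or gibberellin (3). The lists match names, so they can miss a family member among the 49 called by locus only or the 69 without a named gene. Of the listed families the Col-0 rises that were not kept included WRKY53, UGT73C7 and UGT87A2. No auxin response factor or SAUR gene had a tested named probe set. The remaining members with a symbol included SETH6 and ATL63, a RING-type protein of the ATL family. SETH6 went from 321.7 and 341.3 to 1912.0 and 1773.9 in Col-0 and from 267.0 and 199.2 to 733.6 and 946.7 in slr-1 by 2 h, with a response difference at 6 h of -1.32 (SE 0.27, adjusted p = 0.00261). NANA (AT3G12700), an aspartic protease, went from 2936.6 and 3108.7 to 8474.8 and 8044.7 in Col-0 and from 2292.8 and 2621.9 to 8826.3 and 9763.7 in slr-1 by 2 h. By 6 h NANA stood at 7078.8 and 9015.7 in Col-0 and at 6292.4 and 4945.8 in slr-1. The slr-1 arrays of NANA were thus the higher at 2 h and the lower at 6 h, with response differences of 0.47 (adjusted p = 0.298) and -0.22 (adjusted p = 0.496).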

How the data were processed

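The 14 ATH1 arrays hold 1 intensity per probe set and array, deposited by the authors as linear signals made with MAS5, per the submitters' processing notes; its settings are not given in the sources used here. About 5.8 µg of total RNA was labelled per sample, per the labels' protocols. The 22810 probe sets include 64 controls, which were left out. The 136 members, the gene lists and the rule for named genes were chosen with earlier results of these data known. That rule took members of the auxin and lateral root lists, the 12 with the highest smallest change, up to 6 per direction and comparison whose arrays do not overlap, the 3 on either side of the threshold and the 6 with the smallest response differences; the text names part of these and, beyond the rule, symbols or neighbours chosen after their values were seen. No further normalization was applied. The floor of 218 is the 40th percentile of all non-control signals, rounded down. Log2(signal + 19) was fitted in limma 3.58.1 (R 4.3.3) with 1 mean per group and variances that follow the mean level (7 residual and 6.57 prior degrees of freedom), and p-values were adjusted over all 14883 tested probe sets. The fit was tested on simulated data. Exact permutation of 2 against 2 arrays was not used, since it cannot reach the threshold. The labels do not say how replicates were grown, so p-values measure the spread between these arrays, which may be technical, and their number limits the precision. Alternatives were another added value (1 or 50), quantile normalization, no filter, a floor of 612.8, fits without the variance trend or with only the groups compared, a replicate block and each array left out. Gene names came from the platform annotation and RefSeq TAIR10.1, and no sequences were used here.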

Additional observations from a re-analysis of the deposited data

Results flagged for a closer look

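The results below were picked out because the change from 0 h differed between slr-1 and Col-0 for genes named by the rule and no difference between single arrays went the other way (limma, 2 arrays per group, log2). Only the largest were taken, up to 6 per direction and time. Other named genes that meet these conditions are therefore not listed, such as IAA29 at 6 h (-3.05). The same arrays chose these genes, so the values are not independent of the choice. The response difference of AT1G30760 at 6 h was -5.13 (SE 0.60, adjusted p = 5.25e-05), and that of AT4G37295 was -3.65 (SE 0.89, adjusted p = 0.00801). GH3.1 stood at -3.23 at 2 h and -5.64 at 6 h, LBD29 at -3.14 and -3.98, GH9C2 at -1.90 and -3.63, and IAA29 at -1.71 at 2 h. AT1G03820 stood at -2.44 (SE 0.36, adjusted p = 0.00365) at 2 h and -3.64 (SE 0.36, adjusted p = 1.72e-05) at 6 h, from 900.8 and 914.9 to 3878.4 and 3389.7 in slr-1 and from 392.3 and 391.5 to 22813.9 and 17678.0 in Col-0. AT1G64405 stood at -2.34 (SE 0.36, adjusted p = 0.00448) at 2 h. In the other direction, NDB2 stood at 1.23 at 2 h and 1.57 at 6 h, and AT1G72230 at 1.06 (SE 0.30, adjusted p = 0.0189) at 6 h. These values are taken against 0 h. In Col-0 NDB2 was lower in the mock than at 0 h (-0.87), a call lost on leaving out some single arrays.

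The calls of AT1G30760, AT4G37295, AT1G03820 and AT1G64405 above, and those at 6 h of GH3.1, LBD29, GH9C2 and NDB2, were made without any 1 array. That of AT1G72230 was lost without Col-0 0 h replicate 2 (adjusted p = 0.0707), Col-0 6 h NAA replicate 2 (0.0736), slr-1 0 h replicate 1 (0.0523) or slr-1 6 h NAA replicate 1 (0.0696). At 2 h those of GH3.1, LBD29, GH9C2, IAA29 and NDB2 were each lost without at least 1 array, with adjusted p of up to 0.0618, 0.0529, 0.05, 0.117 and 0.12.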

How the results depend on the processing

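The number of probe sets taken by the rule was 111 to 155 under other added values, normalization or floors, and 129 to 146 with 1 array left out. With single arrays left out, the counts higher and lower ran from 9 to 22 and 15 to 28 for slr-1 against Col-0 at 0 h, 4 to 10 and 7 to 19 for mock against 0 h, 21 to 45 and 3 to 15 for the late change in Col-0, and 0 to 1 and 0 to 9 for that in slr-1. For the response difference they ran from 0 to 7 and 11 to 26 at 2 h, and 4 to 8 and 47 to 62 at 6 h. Fitting only the groups compared gave 12 and 14 at 0 h, 2 and 10 for the mock, 63 further rises in Col-0, 1 and 11 in slr-1, and 2 higher response differences at 2 h, from fewer samples. Without the variance trend there were 5 higher in the mock, 2 declines in slr-1, and 0 higher and 14 lower at 2 h. Without the floor 5 were higher in the mock, where more probe sets were tested. The cause of the other shifts was not tested. Of the values of named genes under these settings, 0 called values changed sign, 173 lost the call and 63 gained it. The rule on the arrays of a single replicate was added after seeing the data. Correlations between groups of deviations from group means ran from -0.161 to 0.128, so the signals showed no strong effect shared by replicate number. Such correlations cannot show whether the samples were grown or handled in pairs. With a replicate block the 6 h response difference gave 8 higher and 58 lower.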
